A study of Rattus norvegicus with 4 samples.

Results

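The genes of oxidative phosphorylation were described across 4 RNA sequencing libraries of the rat line NRK-52E, with the nuclear and the mitochondrially encoded genes kept apart. Members were the protein-coding rows whose symbols begin with Nduf, Uqc, Atp5 or Cox4 to Cox8, or are Cyc1 or Sdha to Sdhd, together with the protein-coding rows of the mitochondrial chromosome. They encode subunits and assembly factors of respiratory complexes I to IV and of ATP synthase (complex V). This gave 107 members of 17768 rows, 94 of them nuclear and 13 mitochondrially encoded, and no measured value entered the choice. Subunits whose symbols follow another pattern were not analysed here as members.

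NRK-52E is a continuous line derived from the kidney of a normal rat and labelled as proximal tubular epithelium. The comparison asks which genes differ in level when METTL3 is overexpressed. The 2 libraries titled lv_Mettl3 came from cells infected with a lentivirus that carried a murine Mettl3 cDNA. For the 2 titled lv_nc the labels describe no vector beyond that title. Per the labels' protocols, the stable line was selected with 0.5 mg/ml and kept in 0.25 mg/ml puromycin, in medium with 10% serum, and all 4 libraries carry the treatment label untreated. The labels state neither clonality nor the cultures behind the replicates. The p-values therefore rest on a spread between libraries that may be purely technical.

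In oxidative phosphorylation, complexes I and II pass electrons from NADH and succinate to coenzyme Q, complex III passes them to cytochrome c, and complex IV passes them to oxygen. Complexes I, III and IV pump protons across the inner mitochondrial membrane, and ATP synthase uses the gradient to make ATP. The mitochondrial genome encodes core membrane subunits of complexes I, III, IV and V, and the nucleus encodes all other subunits, every subunit of complex II and the assembly factors. The proximal tubule, the nephron segment from which the line takes its labelled cell type, depends heavily on mitochondrial ATP for solute transport.

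The recovered reads numbered 15068898 and 15483756 in the lv_Mettl3 libraries, against 16133328 and 16622255 in the lv_nc libraries. Mettl3, the catalytic subunit of the RNA adenosine methyltransferase, had 757 and 700 normalized counts in the lv_Mettl3 libraries, against 719 and 767 in the lv_nc libraries, so the row did not separate the groups, which are called by their labels. Whether reads of the murine cDNA were counted in this rat row is not given in the labels, so the row does not show whether the transgene was expressed. Among the 10051 genes averaging 100 or more normalized counts, the median absolute log2 difference between replicates was 0.10 in lv_Mettl3 and 0.21 in lv_nc. Of 10 proximal tubule markers 6 were in the table. Of these Ggt1 had 3294 and 3757 normalized counts in the lv_Mettl3 libraries, against 2412 and 2530 in lv_nc. DESeq2 called Ggt1 higher (adjusted p = 0.0345), and limma and edgeR did not (adjusted p = 0.378 and 0.33). Lrp2 was at 0 in both lv_Mettl3 libraries, and Lrp2 and Aqp1 did not exceed 6.46 in any library. Cubn, Slc5a2 and Anpep overlapped between the groups and did not exceed 39.3. The epithelial keratin gene Krt8 was at 28296 and 32176 in lv_Mettl3, against 29513 and 33065 in lv_nc, while the epithelial markers Cdh1, Cdh16 and Pax8 did not exceed 8.79. The fibroblast marker Col1a1 had 1033 and 876 in lv_Mettl3, against 3914 and 8706 in lv_nc, and of the 6 fibroblast and smooth muscle markers found, DESeq2 called 4 lower, beside 2.52% of all genes called in either direction, while limma and edgeR called 0 and had 4 each at an unadjusted p under 0.05. The other 2 were not called. Vim was higher in both lv_Mettl3 libraries, with 78944 and 81126 in lv_Mettl3, against 73025 and 56378 in lv_nc. Pdgfra, at a few reads, had 1.06 and 3.1 in lv_Mettl3, against 0.977 and 0.923 in lv_nc. Of these Pdgfra values 1.06, 0.977 and 0.923 each stand for 1 read, so lv_Mettl3 replicate 1 equalled both lv_nc libraries in reads. The part of these markers in the results was not tested.

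No member of the oxidative phosphorylation set passed a test between lv_Mettl3 and lv_nc. LOC108348144, described as a complex I subunit but not a member by its symbol, was called lower by DESeq2 and is given below. Of the nuclear members 92 of 94 passed the filter on low values, and all 13 mitochondrially encoded genes did. The limma test with Benjamini-Hochberg adjustment over all genes called 0 of these 105, with a smallest adjusted p of 0.488 and 0 at an unadjusted p under 0.05. Across the 16391 genes tested, limma called 0.0183%, and 10.5% had an unadjusted p under 0.05. The edgeR quasi-likelihood test on recovered reads called 0 members, with 0 at an unadjusted p under 0.05. Of the 16391 genes it called 0.0305%, and 1661 had an unadjusted p under 0.05. DESeq2 called 0 of the 101 members to which it gave an adjusted p, against 2.52% of all genes. It had 2 members at an unadjusted p under 0.05, Ndufaf4 and Atp5pb, beside 1322 of all 17768 rows. In the authors' deposited table the lowest adjusted p of a member was 0.256, for Ndufaf4.

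All log2 fold changes are lv_Mettl3 over lv_nc, on the log2(value + 1) scale. Among the nuclear members that passed the filter the median was -0.04, beside 0.01 over all genes tested, with 33 above 0 and 59 below. Among the mitochondrially encoded genes the median was 0.14, with 9 above 0 and 4 below. A fold change under 0.25 in absolute size was measured for 83 of the 92 nuclear members, or 90.2%, for 8 of the 13 mitochondrially encoded genes, or 61.5%, and for 52.8% of all genes tested. Among genes averaging 100 or more, the shares were 95.3% of nuclear members and 69.2% of all genes. The 95% interval of limma lay wholly within a 2-fold change either way for 85 of the nuclear members and 12 of the mitochondrially encoded genes, and within 0.5 on the log2 scale for 72 and 7 of them. Among the 87 nuclear members with a mean of at least 50, the exceptions to the 2-fold limit were the complex I assembly factor genes Ndufaf2 and Ndufaf4. The values do not exclude smaller differences in any member.

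**Figure D1:**
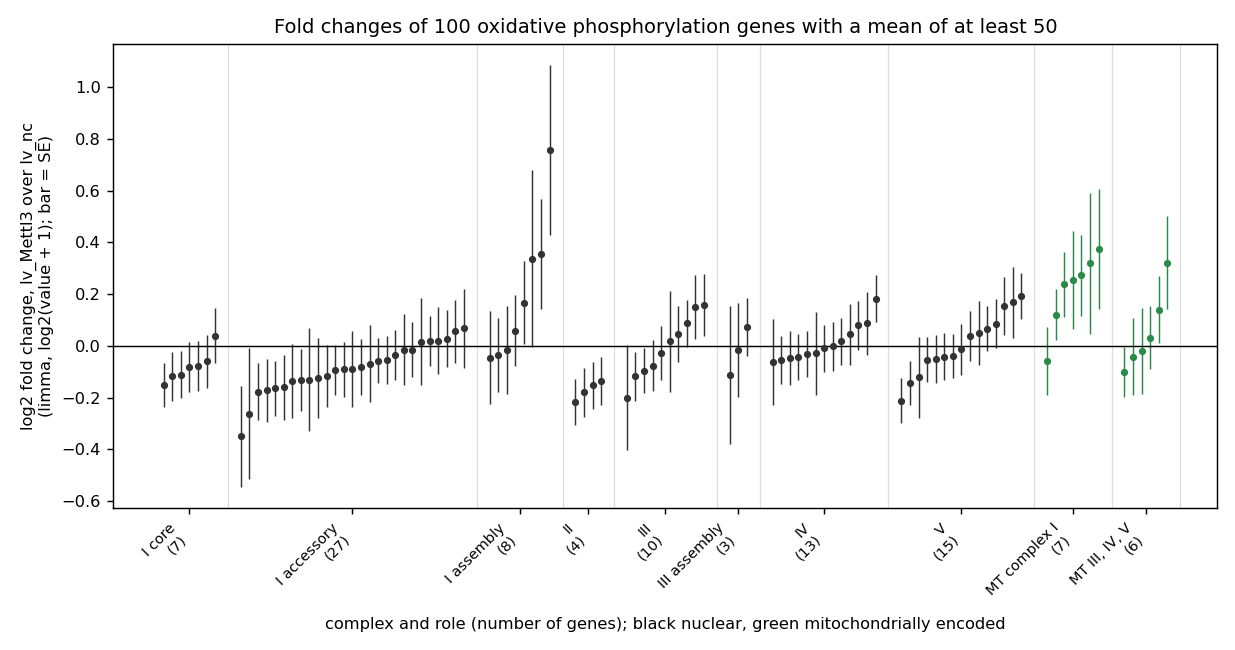
Limma log2 fold changes (y axis, lv_Mettl3 over lv_nc, bars 1 SE) of 100 members with a mean of at least 50 normalized counts, sorted within complex and role (x axis), with nuclear genes in black and mitochondrially encoded genes in green. The 4 complex II genes all lie below 0 and Ndufaf4, at 0.76, is the highest point. Complex IV is drawn with Ndufa4 and the supercomplex gene Cox7a2l, and complex V with the inhibitor gene Atp5if1.

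Both lv_Mettl3 libraries were below both lv_nc libraries for 28 nuclear members and above them for 11, while the groups overlapped for 53. Across all genes tested these shares were 21.5% below and 23.5% above. With 2 libraries a group, a lack of overlap is not a call. Summed over the nuclear members, 0.784% and 0.808% of the reads in the lv_Mettl3 libraries came from these genes, against 0.833% and 0.858% in the lv_nc libraries. The exact two-sided permutation test over libraries gave p = 0.333, the smallest p that 2 against 2 allows. Wilson 95% intervals of these shares, which cover counting error only, were no wider than 0.0045 percentage points to either side.

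Complex I, the NADH dehydrogenase, had 35 nuclear subunit genes. Of these 7 encode core subunits, most of which carry the flavin or iron-sulfur clusters or bind quinone. The subunit genes had a median log2 fold change of -0.08, with 27 below 0 and 8 above, and both lv_Mettl3 libraries were below both lv_nc libraries for 15 of them (42.9%) and above for 0, beside 21.5% below and 23.5% above over all genes tested. Summed over the subunits, lv_Mettl3 had 28670 and 29795 normalized counts, against 30851 and 30978 in lv_nc. Ndufs1, the largest iron-sulfur subunit, had 2178 and 2207 normalized counts in lv_Mettl3, against 2371 and 2500 in lv_nc, with a log2 fold change of -0.15 (SE 0.09, adjusted p = 0.553 by limma). Ndufv1, which binds the flavin and NADH, had 1042 and 1082 in lv_Mettl3, against 1164 and 1142 in lv_nc. In neither gene did the groups overlap. Ndufs7, the quinone-site iron-sulfur subunit, was the 1 core subunit with a fold change above 0, with 872 and 799 in lv_Mettl3, against 804 and 820 in lv_nc. The accessory subunits Ndufb9 and Ndufa7 had the highest levels per kilobase of gene length in the complex, 3027 and 1799 normalized counts per kilobase over all libraries.

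Ndufa3, a small accessory subunit, had the lowest fold change of the nuclear members with a mean of at least 50. It had 142 and 149 normalized counts in lv_Mettl3, against 206 and 167 in lv_nc, a log2 fold change of -0.35 (SE 0.20, adjusted p = 0.552 by limma). The groups did not overlap, and the lv_nc libraries lay further apart than the lv_Mettl3 libraries. Ndufa12, another accessory subunit, had 247 and 290 in lv_Mettl3, against 402 and 258 in lv_nc. Here 1 lv_nc library was high and the other lay between the lv_Mettl3 libraries, and without lv_nc replicate 1 the log2 fold change was 0.06 instead of -0.26.

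The 8 genes of complex I assembly factors, Ndufaf1 to Ndufaf8, had a median log2 fold change of 0.11, with both lv_Mettl3 libraries above both lv_nc libraries for 3 of them (37.5%) and below for 0, beside 23.5% above and 21.5% below over all genes. Ndufaf4 (ENSRNOG00000007506, chromosome 5, 39251337 to 39257512 by the coordinates of the authors, who state no build in the sources used here) had 806 and 746 normalized counts in lv_Mettl3, against 644 and 326 in lv_nc. The lv_nc replicates differed from each other more than the nearer of them differed from lv_Mettl3. Means were 776 ± 42.2 in lv_Mettl3 and 485 ± 225 in lv_nc (SD, n = 2 each), with a log2 fold change of 0.76 (SE 0.33, 95% interval -0.08 to 1.6, adjusted p = 0.502 by limma). It ranged from 0.27 without lv_nc replicate 2 to 1.25 without lv_nc replicate 1.

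Ndufaf8, a partner of the assembly factor Ndufaf5, had 237 and 247 normalized counts in lv_Mettl3, against 223 and 161 in lv_nc, with a log2 fold change of 0.35 (SE 0.21, adjusted p = 0.568 by limma). Without lv_nc replicate 1 it was 0.59, and without lv_nc replicate 2 it was 0.12. Ndufaf2 had 88.0 and 85.8 in lv_Mettl3, against 90.9 and 51.7 in lv_nc, so lv_nc replicate 1 was the highest library and lv_nc replicate 2 the lowest. In all 3 of these assembly factor genes lv_nc replicate 2 was the lowest library.

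Complex II, the succinate dehydrogenase that is shared with the tricarboxylic acid cycle, was lower in both lv_Mettl3 libraries for all 4 of its genes, against 21.5% of all genes tested, and none passed the test. Sdha, the flavoprotein subunit that oxidizes succinate (chromosome 1, 31545631 to 31570601), had 2329 and 2314 normalized counts in lv_Mettl3, against 2492 and 2774 in lv_nc. Sdhb, the iron-sulfur subunit (chromosome 5, 159484370 to 159505064), had 1289 and 1351 in lv_Mettl3, against 1474 and 1425 in lv_nc. The membrane anchor gene Sdhc (chromosome 13, 89498048 to 89518939) had 2229 and 2199 in lv_Mettl3, against 2480 and 2665 in lv_nc. In none of these genes did the groups overlap, and the gap was small beside the level. Sdhd, the other membrane anchor gene (chromosome 8, 55028125 to 55037604), had 1581 and 1617 in lv_Mettl3, against 1720 and 1838 in lv_nc.

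The log2 fold changes were -0.18 for Sdha, -0.14 for Sdhb, -0.22 for Sdhc and -0.15 for Sdhd, with standard errors of 0.09 or 0.10. The limma adjusted p was 0.539 for Sdha, 0.6 for Sdhb, 0.488 for Sdhc and 0.562 for Sdhd. Leaving out any 1 library kept each of the 4 below 0, between -0.27 and -0.10. Summed over the 4 genes, lv_Mettl3 had 7428 and 7481 normalized counts, against 8167 and 8703 in lv_nc (exact permutation p = 0.333, the smallest possible).

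The windows upstream of these 4 genes and of Ndufaf4 are shown as a description and were chosen after the values were seen. Complex II was lower in every library pair and Ndufaf4 had the highest fold change of any member, but none of these genes was called. Whether the promoters bear on these values was not tested. Each is the 250 bases before the annotated start in RefSeq (build GRCr8), 5′ to 3′ on the strand of the gene. Capitals mark matches on either strand to the NRF1 pattern, which reads GCGCA, any 1 base and then GCGC, or to the core ETS pattern CCGGAAG, which is bound by GABPA among other factors.
Sdha, chr1:30764303-30764552, plus strand: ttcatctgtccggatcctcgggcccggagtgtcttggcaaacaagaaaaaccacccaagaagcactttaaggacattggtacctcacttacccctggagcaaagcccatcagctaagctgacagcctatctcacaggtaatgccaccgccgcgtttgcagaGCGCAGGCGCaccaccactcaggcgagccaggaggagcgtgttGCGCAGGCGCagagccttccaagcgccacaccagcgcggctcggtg
Sdhb, chr5:158547684-158547933, plus strand: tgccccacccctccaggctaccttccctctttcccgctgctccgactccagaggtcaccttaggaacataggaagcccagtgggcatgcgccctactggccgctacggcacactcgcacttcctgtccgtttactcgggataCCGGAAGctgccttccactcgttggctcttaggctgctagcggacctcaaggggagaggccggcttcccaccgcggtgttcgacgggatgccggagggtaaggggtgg
Sdhc, chr13:86098026-86098275, minus strand: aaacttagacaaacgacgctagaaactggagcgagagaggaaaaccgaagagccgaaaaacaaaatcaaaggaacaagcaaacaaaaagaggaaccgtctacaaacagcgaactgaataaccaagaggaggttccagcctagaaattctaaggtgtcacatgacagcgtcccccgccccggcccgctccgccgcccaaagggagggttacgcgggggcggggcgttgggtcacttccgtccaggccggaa
Sdhd, chr8:59850642-59850891, minus strand: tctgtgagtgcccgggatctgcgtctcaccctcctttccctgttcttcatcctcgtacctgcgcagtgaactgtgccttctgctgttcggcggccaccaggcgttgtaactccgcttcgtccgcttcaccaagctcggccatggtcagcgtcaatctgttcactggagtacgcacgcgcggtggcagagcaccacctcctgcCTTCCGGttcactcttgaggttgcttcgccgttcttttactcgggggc
Ndufaf4, chr5:43401545-43401794, plus strand: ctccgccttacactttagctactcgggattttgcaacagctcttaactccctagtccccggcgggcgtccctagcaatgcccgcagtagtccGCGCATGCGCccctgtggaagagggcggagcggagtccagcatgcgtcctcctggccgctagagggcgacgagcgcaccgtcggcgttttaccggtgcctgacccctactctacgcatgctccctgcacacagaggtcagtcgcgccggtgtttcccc
The Sdha window held the NRF1 pattern 2 times without overlap, the Ndufaf4 window held it once, and the Sdhb and Sdhd windows each held the ETS pattern once. The Sdhc window held neither, which says only that these letters are not in it.

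Promoter windows were matched for 81 of the 92 distinct nuclear symbols. The NRF1 pattern was in 13 of the 81 windows, or 16.0%, and in 5.07% of the 21851 windows of protein-coding genes. The ETS pattern was in 23 of the 81, or 28.4%, beside 9.01% of all. The YY1 pattern AAGATGG was in 4 of the 81, or 4.94%, beside 4.36% of all. Each matched member had 1 window, whereas other genes could have more. Counted by gene, the shares over 19005 protein-coding genes were 5.58% for NRF1, 9.81% for ETS and 4.7% for YY1. In 45 of the 81 windows none of the 3 patterns was found. NRF1 and GABPA are known as activators of nuclear respiratory genes in mammals, and a match is a description of letters, not evidence of binding in these cells.

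**Figure D2:**
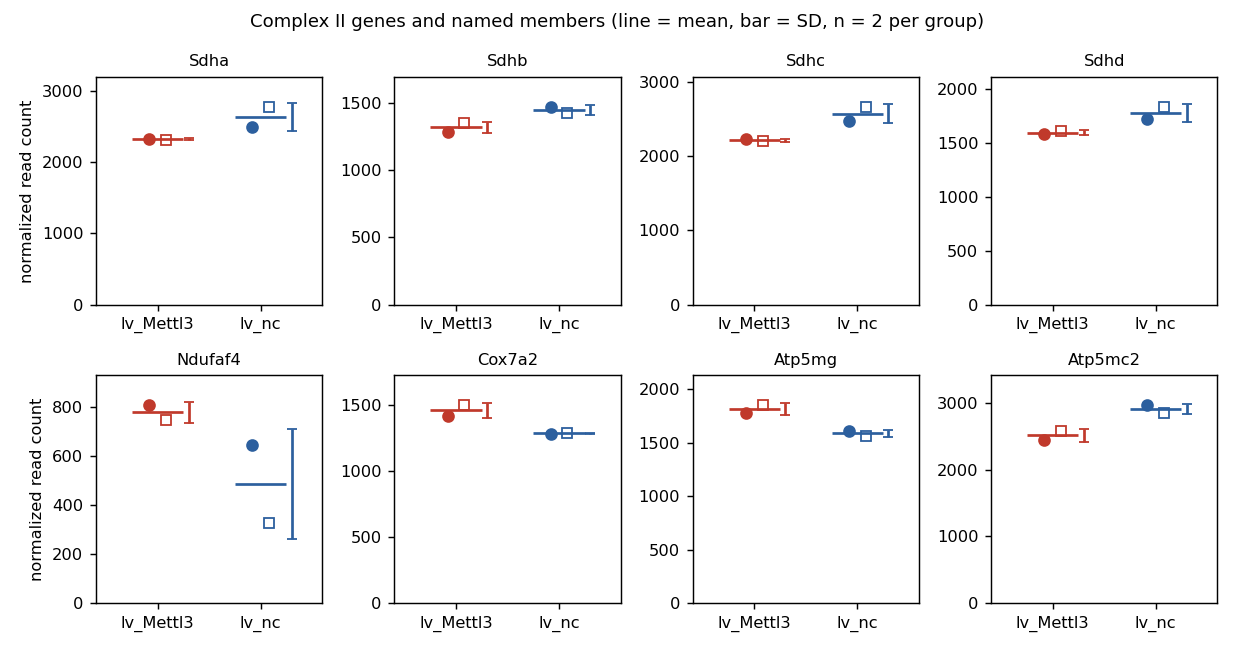
Normalized read counts (y axis, from 0) of the 4 complex II genes, Ndufaf4, Cox7a2, Atp5mg and Atp5mc2 in the lv_Mettl3 libraries (left) and the lv_nc libraries (right), with filled circles for replicate 1, open squares for replicate 2, lines for the mean and bars for the SD. Complex II genes and Atp5mc2 are lower in both lv_Mettl3 libraries, and Ndufaf4, at 326 in lv_nc replicate 2, has the widest spread.

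Complex III, the cytochrome bc1 complex, had 10 nuclear subunit rows with a median log2 fold change of -0.01, 5 above 0 and 5 below. Cyc1, the cytochrome c1 heme subunit, had 2758 and 2739 normalized counts in lv_Mettl3, against 3142 and 2830 in lv_nc, a log2 fold change of -0.12 (SE 0.09, adjusted p = 0.65 by limma). The Rieske iron-sulfur protein gene Uqcrfs1 had 2225 and 2535 in lv_Mettl3, against 2345 and 2501 in lv_nc, and the groups overlapped. Both lv_Mettl3 libraries were above both lv_nc libraries for 2 of the 10 rows (20%) and below for 2 (20%), beside 23.5% and 21.5% of all genes tested. The higher rows were the small subunits Uqcr11 and Uqcrq, and the lower rows were Cyc1 and Uqcrc1. Uqcr11 had 606 and 637 in lv_Mettl3, against 528 and 587 in lv_nc, and Uqcrq had 1755 and 1843 in lv_Mettl3, against 1651 and 1736 in lv_nc. Of the assembly factors, Uqcc1 had a fold change of 0.07 and the 3 genes ranged from -0.11 to 0.07. The symbol Uqcrb labels 2 rows. The row on chromosome 7 had 223 and 310 in lv_Mettl3, against 295 and 309 in lv_nc, and the row on chromosome 1, whose span equals its length as in a gene without introns, had 735 and 801 against 731 and 757. RefSeq lists the chromosome 1 copy as a pseudogene, and reads could be split between the rows. Their sums were 957 and 1111 in lv_Mettl3, against 1026 and 1066 in lv_nc.

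Complex IV, the cytochrome c oxidase, had 17 nuclear subunit rows, of which 12 had a mean of at least 50. Those 12 ranged from -0.06 to 0.18 in log2 fold change. Several subunits come as isoform pairs with one widely expressed and one mostly muscle, lung or testis form, and the widely expressed form was the one found here. Cox4i1 had 3055 and 3238 normalized counts in lv_Mettl3, against 3269 and 3065 in lv_nc, whereas the lung form Cox4i2 had at most 3 reads in any library. The heart and muscle forms Cox6a2 and Cox7a1 had at most 5 and 2 reads, and the testis form Cox6b2 had at most 1. At such counts no fold is given, and Cox7a1 and Cox6b2 did not pass the filter.

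The partner forms were all abundant. Cox6a1 had 2687 and 2811 normalized counts in lv_Mettl3, against 2734 and 2936 in lv_nc, a log2 fold change of -0.04 (SE 0.09). Cox8a, the widely expressed form of subunit 8, had 1343 and 1520 in lv_Mettl3, against 1300 and 1477 in lv_nc. Cox7a2, the widely expressed form of subunit 7a, had the highest fold change of those 12, with 1420 and 1501 in lv_Mettl3, against 1282 and 1291 in lv_nc. The groups did not overlap, and its log2 fold change was 0.18 (SE 0.09, 95% interval -0.05 to 0.42, adjusted p = 0.523 by limma). Cox7a2l, which joins complexes III and IV into supercomplexes, had 900 and 995 in lv_Mettl3, against 980 and 978 in lv_nc.

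Ndufa4, now counted as a subunit of complex IV, had 2293 and 2172 normalized counts in lv_Mettl3, against 1915 and 2306 in lv_nc. Its hypoxia-inducible relative Ndufa4l2 had 5 and 11 reads in lv_Mettl3, against 10 and 19 in lv_nc. Cox6b1 labels 2 rows, and the one on chromosome 2 has a span equal to its length. The chromosome 1 row had 1596 and 1613 normalized counts in lv_Mettl3, against 1457 and 1582 in lv_nc, and the chromosome 2 row had 233 and 214 against 238 and 218. Reads could be split between them, and the sums were 1829 and 1827 in lv_Mettl3, against 1695 and 1800 in lv_nc. Per kilobase, Cox6c and Cox6a1 were the highest of the nuclear complex IV genes, with means over all libraries of 5572 and 5085 normalized counts per kilobase.

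ATP synthase, complex V, held the most abundant nuclear members. Its 14 genes with a mean of at least 50 had a median log2 fold change of -0.03, ranging from -0.21 to 0.19, and both lv_Mettl3 libraries were above both lv_nc libraries for 3 of them (21.4%) and below for 6 (42.9%), beside 23.5% and 21.5% of all genes. Atp5f1b, the catalytic beta subunit, had 15933 and 16449 normalized counts in lv_Mettl3, against 16979 and 16633 in lv_nc, and 9306 per kilobase over all libraries. Atp5f1a, the alpha subunit, had 11533 and 11816 in lv_Mettl3, against 12728 and 13089 in lv_nc. For both genes each lv_Mettl3 library was below each lv_nc library, with log2 fold changes of -0.05 and -0.14 (SE 0.09 each, adjusted p = 0.833 and 0.56 by limma).

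The c subunit, which forms the rotor ring, is encoded by 3 genes with the same mature protein, and their fold changes had different signs. Atp5mc1 had 2220 and 2138 normalized counts in lv_Mettl3, against 2118 and 1811 in lv_nc. Atp5mc2 had 2443 and 2578 in lv_Mettl3, against 2965 and 2852 in lv_nc, with a log2 fold change of -0.21 (SE 0.09, 95% interval -0.44 to 0.01, adjusted p = 0.488 by limma). The groups did not overlap for either gene. Atp5mc3 had 2651 and 2514 in lv_Mettl3, against 2777 and 2576 in lv_nc, and its groups overlapped.

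Atp5mg, the membrane subunit g that lies at the contact between ATP synthase dimers, had 1777 and 1852 normalized counts in lv_Mettl3, against 1609 and 1564 in lv_nc. The groups did not overlap, and the log2 fold change was 0.19 (SE 0.09, 95% interval -0.03 to 0.42, adjusted p = 0.502 by limma). Atp5if1, the inhibitor that blocks ATP hydrolysis, had 1114 and 1164 in lv_Mettl3, against 908 and 1132 in lv_nc, so only lv_nc replicate 1 stood below the rest.

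For Atp5pb, Ndufa1 and ND4, named after their values were seen, another row resembles the gene and may share its reads, so their values are uncertain. Atp5pb, the peripheral stalk subunit b, had 33 and 19 normalized counts in lv_Mettl3, against 114 and 25 in lv_nc, and 23.1 normalized counts per kilobase, beside a median of 3565 for the complex. LOC100911417, described as a b subunit and of the same length of 2063 bases, also on chromosome 2, had 468 and 20.7 in lv_Mettl3, against 648 and 38.8 in lv_nc. Summed, the pair had 500.4 and 39.3 in lv_Mettl3, against 762 and 63.7 in lv_nc, so within each group replicate 1 was far above replicate 2. The sum had a log2 fold change of -0.64 (SE 1.61, adjusted p = 0.899 by limma).

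Ndufa1, a small membrane subunit of complex I on chromosome X, had 0 and 4 reads in lv_Mettl3, against 0 and 3 in lv_nc. LOC108348144, described as subunit 1 of the alpha subcomplex and also on chromosome X, had 2 and 2 reads in lv_Mettl3, against 133 and 82 in lv_nc. That row was not a member. DESeq2 called it lower (adjusted p = 1.35e-07), and limma and edgeR did not (adjusted p = 0.162 and 0.103). Summed with Ndufa1, normalized counts were 2.12 and 6.20 in lv_Mettl3, against 130 and 78.5 in lv_nc (limma unadjusted p = 0.000511, adjusted p = 0.252).

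**Figure D3:**
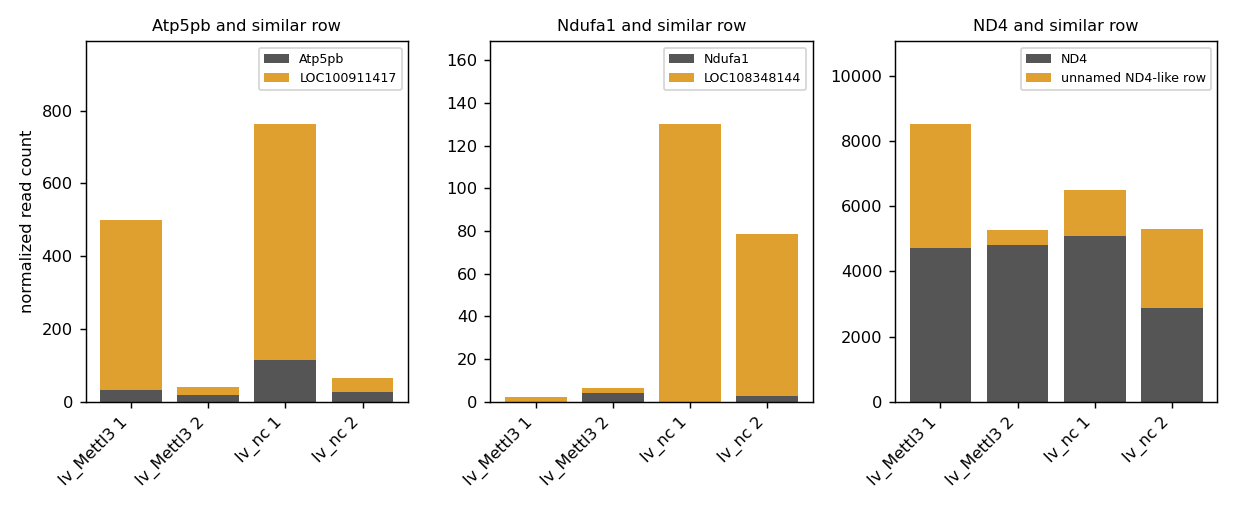
Normalized read counts (y axis, from 0, a separate scale in each panel) of Atp5pb, Ndufa1 and ND4 (grey) stacked with a similar row outside the members (orange) in the 2 lv_Mettl3 and 2 lv_nc libraries. The Ndufa1 pair is near 0 in both lv_Mettl3 libraries, and the Atp5pb pair is high in replicate 1 of each group.

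Reads from the mitochondrially encoded genes were 2.33% and 2.07% of each lv_Mettl3 library, against 2.2% and 2.03% of each lv_nc library, with Wilson 95% intervals of at most 0.0076 percentage points to either side. The exact permutation test gave p = 0.667, where the smallest possible p is 0.333. The replicates of a group differed more than the group means, which were 2.2 ± 0.179% in lv_Mettl3 and 2.11 ± 0.119% in lv_nc (SD, n = 2 each). Bulk libraries such as these cannot tell a difference in mitochondrial transcripts per cell from a difference in the share of cells that carry them. Per kilobase of gene length, the median over the 13 genes was 24624 normalized counts, against 1258 over the nuclear members with a mean of at least 50, a ratio of 19.6.

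Both strands of the mitochondrial genome are transcribed as long precursors that are cut into messengers, and the counts per kilobase of the gene rows ranged widely. COX1, the catalytic subunit of complex IV, was highest at 81464 normalized counts per kilobase over all libraries. Its counts were 131176 and 123344 in lv_Mettl3, against 125067 and 123860 in lv_nc, and it made up 35.3% and 37.2% of the mitochondrially encoded total in lv_Mettl3, against 36.1% and 39.8% in lv_nc. COX3, ATP6, COX2 and CYTB followed, with 42226, 41294, 35688 and 34349 per kilobase, then ND1 and ND2 with 26345 and 24624. ND5, ND4L, ND3 and ND6 had 13286, 11917, 9995 and 5561 per kilobase. Neighbours in that order were not tested against each other.

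The lowest were ND4, at 3178 normalized counts per kilobase, and ATP8, at 876. ATP8 shares 43 of its 204 bases with ATP6, which is read from the same messenger, so the value of a gene row need not be the level of a messenger. ATP8 had 174 and 181 normalized counts in lv_Mettl3, against 184 and 176 in lv_nc. ND4 shares 7 bases with ND4L. ND5 and ND6 share 23 bases on opposite strands, and reads there cannot be told apart unless strand was used, which is not given in the sources used here.

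**Figure D4:**
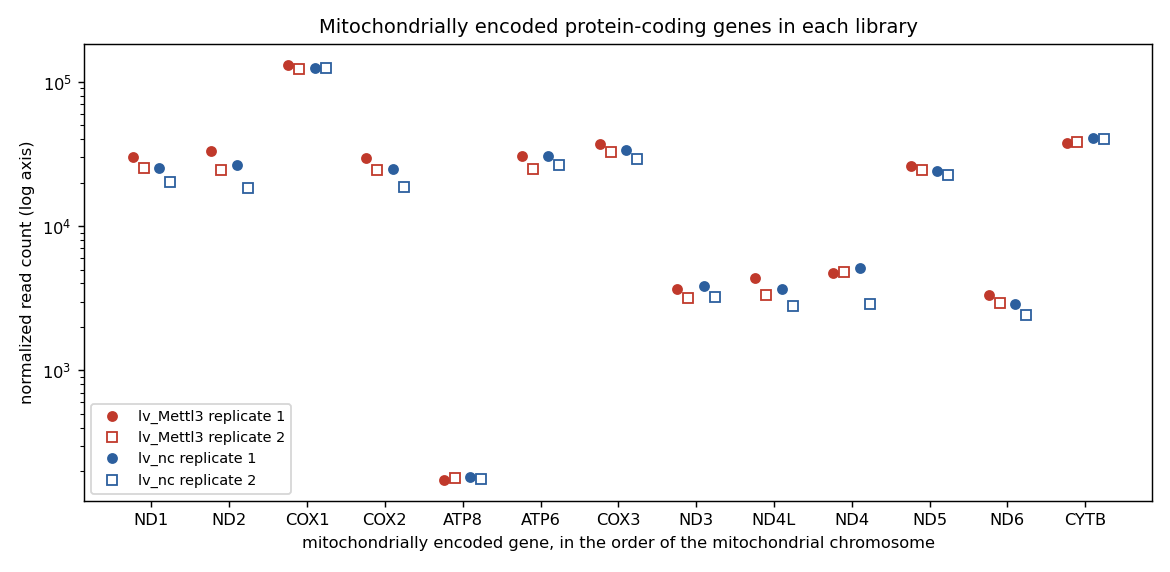
Normalized read counts (y axis, log scale) of the 13 mitochondrially encoded genes in chromosome order (x axis), with lv_Mettl3 in red and lv_nc in blue, filled circles for replicate 1 and open squares for replicate 2. COX1 is near 125067 in every library and ATP8 near 176, and in ND1, ND2 and COX2 the circles lie above the squares in both groups.

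The 7 complex I genes of the mitochondrial genome ranged from -0.06 to 0.38 in log2 fold change, and ND2 had the highest of the 13 genes. It had 32967 and 24648 normalized counts in lv_Mettl3, against 26488 and 18234 in lv_nc, a log2 fold change of 0.38 (SE 0.23, 95% interval -0.22 to 0.97, adjusted p = 0.578 by limma). ND1 had 29932 and 25085 in lv_Mettl3, against 25298 and 20322 in lv_nc, a log2 fold change of 0.27 (SE 0.16, adjusted p = 0.553 by limma). In both genes lv_Mettl3 replicate 1 was the highest library and lv_nc replicate 2 the lowest, and the groups overlapped.

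ND4L had 4370 and 3337 normalized counts in lv_Mettl3, against 3650 and 2800 in lv_nc. ND6, the only one of the 13 encoded on the minus strand in the authors' table, had 3324 and 2920 in lv_Mettl3, against 2870 and 2431 in lv_nc, without overlap, and a log2 fold change of 0.24 (SE 0.13, adjusted p = 0.538 by limma). ND5 also did not overlap, with 26204 and 24446 in lv_Mettl3, against 23887 and 22714 in lv_nc. ND3 had 3661 and 3149 in lv_Mettl3, against 3852 and 3250 in lv_nc, and its fold change was -0.06. Summed over the 7 genes, lv_Mettl3 had 105179 and 88414, against 91146 and 72622 in lv_nc (exact permutation p = 0.667, smallest possible 0.333).

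ND4 had 4721 and 4828 normalized counts in lv_Mettl3, against 5100 and 2870 in lv_nc, and its log2 fold change was 0.32 (SE 0.27), 0.73 without lv_nc replicate 1 and -0.10 without lv_nc replicate 2. An unnamed row of 1525 bases on chromosome 20, described in the file as resembling the ND4 chain, had 3798 and 446 in lv_Mettl3, against 1415 and 2435 in lv_nc. Summed with it, ND4 had 8519 and 5275 in lv_Mettl3, against 6515 and 5305 in lv_nc, a log2 fold change of 0.19 (SE 0.25, adjusted p = 0.79 by limma). How the counting divided reads between these rows was not tested.

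Of the other mitochondrially encoded genes, COX2, a catalytic subunit of complex IV, had the highest fold change. It had 29757 and 24381 normalized counts in lv_Mettl3, against 24721 and 18783 in lv_nc, a log2 fold change of 0.32 (SE 0.18, adjusted p = 0.548 by limma). COX3 had 36933 and 32451 in lv_Mettl3, against 33818 and 29217 in lv_nc, and COX1 had a fold change of 0.03 (SE 0.12). In COX2 and COX3 the groups overlapped. CYTB, the heme subunit of complex III, had 37675 and 38083 in lv_Mettl3, against 40949 and 40338 in lv_nc, without overlap, and a fold change of -0.10 (SE 0.10, adjusted p = 0.703 by limma). ATP6, the proton channel subunit of ATP synthase, had 30660 and 24828 in lv_Mettl3, against 30591 and 26405 in lv_nc.

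The spread between replicates was larger for mitochondrially encoded than for nuclear members. The median absolute log2 difference between replicates was 0.19 in lv_Mettl3 and 0.24 in lv_nc over the 13 genes, beside 0.08 and 0.09 over the 87 nuclear members with a mean of at least 50. The median absolute log2 fold change between groups was 0.14 over the 13 genes and 0.08 over those 87. Replicate 1 was above replicate 2 in both groups for 10 of the 13, and for 4450 of the 16391 genes tested. The exceptions were ATP8, ND4 and CYTB.

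**Figure D5:**
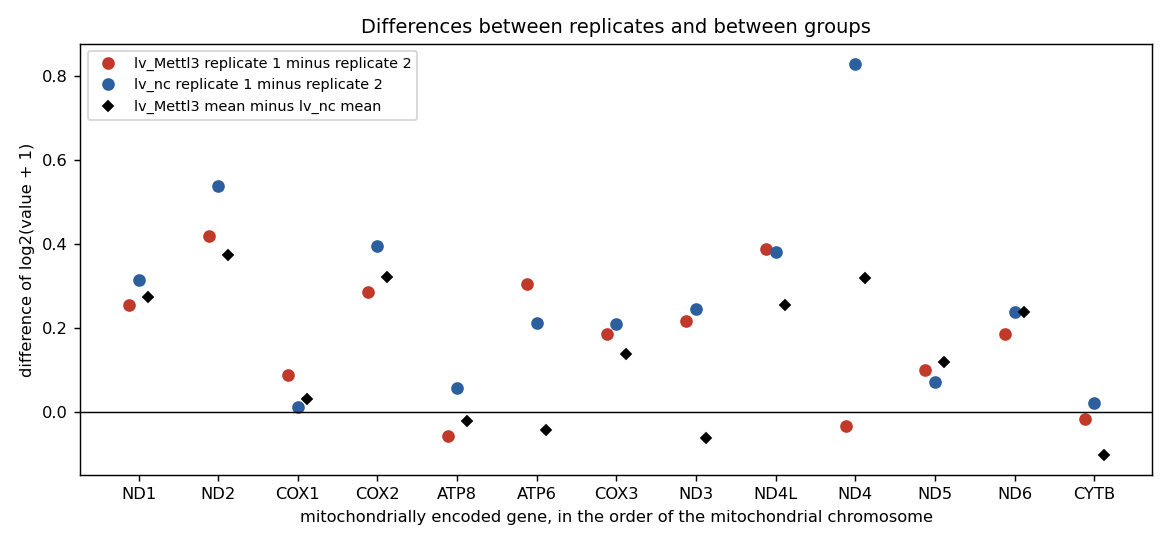
Differences of log2(value + 1) (y axis) for each mitochondrially encoded gene (x axis, chromosome order), with replicate 1 minus replicate 2 in lv_Mettl3 (red) and in lv_nc (blue), and the lv_Mettl3 mean minus the lv_nc mean (black). In ND2 and COX2 the replicate differences are about as large as the group differences of 0.38 and 0.32, and ND4 differs between the lv_nc replicates alone.

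Of the wider pathway, lists of 5 gene groups were read beside the members, and limma, edgeR and DESeq2 called 0 genes in each. Over all 16391 genes tested, 10.5% had an unadjusted p under 0.05 by limma and 1661 by edgeR. By DESeq2 it was 1322 of all 17768 rows. The list of 45 assembly factors outside the naming pattern had 42 genes in the table, with a median log2 fold change of 0.00, 1 at a limma unadjusted p under 0.05, and 1 each by edgeR and DESeq2. Cox10, which makes heme A for complex IV, was the 1 gene in the limma test, named after its values were seen. It had 867 and 913 normalized counts in lv_Mettl3, against 686 and 505 in lv_nc, a log2 fold change of 0.60 (SE 0.17, adjusted p = 0.447 by limma). Its groups did not overlap. Coa5 and Coa3, abundant complex IV assembly factors, had 1247 ± 114 and 1173 ± 43.9 in lv_Mettl3 and 1248 ± 128 and 1058 ± 33.5 in lv_nc (SD, n = 2 each).

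The 14 genes of cytochrome c and coenzyme Q synthesis had a median log2 fold change of 0.06, with 0 at an unadjusted p under 0.05 by limma and edgeR and 1 by DESeq2, Coq8a. Cycs, which encodes the electron carrier cytochrome c, had 2423 and 2269 normalized counts in lv_Mettl3, against 2171 and 1531 in lv_nc (adjusted p = 0.521 by limma). The 28 genes found for replication, transcription and RNA maturation in mitochondria had a median of 0.14, 23 above 0 and 5 below, with 2 at an unadjusted p under 0.05 by limma, 2 by edgeR and 0 by DESeq2. Those by limma, named after their values were seen, were Polg2, the accessory subunit of the mitochondrial DNA polymerase, at 187 and 162 normalized counts in lv_Mettl3, against 117 and 116 in lv_nc, and Mterf2, at 6.36 and 8.27 in lv_Mettl3, against 23.4 and 23.1 in lv_nc. Lrpprc, which stabilizes mitochondrial messengers, had 2346 ± 81.7 in lv_Mettl3 and 2152 ± 351 in lv_nc, and Polg, the mitochondrial DNA polymerase, had 2283 ± 63.0 and 1922 ± 145. For this list the summed counts were 17162 and 16660 in lv_Mettl3, against 16782 and 13937 in lv_nc, so lv_nc replicate 2 alone was low.

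The 12 regulators of nuclear respiratory genes found had a median log2 fold change of 0.04, with 1 at an unadjusted p under 0.05 by each of the 3 tests. That gene was Ppard by limma, with 279.9 and 342 normalized counts in lv_Mettl3, against 391.8 and 444 in lv_nc. Pprc1, a coactivator related to PGC-1, was the gene by DESeq2, and both were named after their values were seen. It had 1815 and 1943 normalized counts in lv_Mettl3, against 1654 and 1065 in lv_nc, a log2 fold change of 0.50 (SE 0.22, adjusted p = 0.502 by limma). Gabpa, which binds the ETS pattern, had 1707 ± 155 in lv_Mettl3 and 1600 ± 116 in lv_nc, and Hcfc1, a coregulator, had 1588 ± 69.7 and 1690 ± 247 (SD, n = 2 each). The 13 genes of the tricarboxylic acid cycle had a median of 0.00, with 0 at an unadjusted p under 0.05 by each test. Mdh2, the mitochondrial malate dehydrogenase, had 4483 ± 35.0 in lv_Mettl3 and 4361 ± 492 in lv_nc (SD, n = 2 each).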

How the data were processed

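RNA of 4 NRK-52E libraries was sequenced, 2 titled lv_Mettl3 and 2 titled lv_nc, and groups and replicate numbers come from the titles. The labels name polyA RNA, while the series text describes removal of ribosomal RNA. Per the submitters' processing notes, CASAVA 1.4 and HISAT2 were used. The sources used here give no counter, strand setting, genome build or annotation. The deposited signal of each library behaves as read counts divided by a size factor. All values (100%) were whole multiples of 1 read, to 0.001 reads, and reads were recovered on that basis. The table also holds gene lengths, log2 fold changes and p-values, computed by the authors per the file headers.

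Genes that reached a value of 1 in 2 or more libraries were tested on log2(value + 1) with limma 3.58.1 (trend), on the whole table, with Benjamini-Hochberg adjustment at 0.05. This scale understates changes of low genes. Alternatives used edgeR 4.0.16 and DESeq2 1.42.0 on recovered reads, in R 4.3.3, and other steps used Python 3.11.15 and matplotlib 3.10.9. Functions were tested on simulated counts.

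Named genes were all mitochondrially encoded genes, the 6 largest fold changes in each direction among nuclear members with a mean of at least 50, the 2 members of each complex highest per kilobase, isoform families, and up to 2 abundant genes of each list where none was called. Members named outside this rule illustrate their complex and were chosen after their values were seen. Some genes are not reported here. Members and lists were chosen with earlier results of these data known. Promoter windows are from RefSeq.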

Additional observations from a re-analysis of the deposited data

How the results depend on the processing

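In all 16 alternatives 0 nuclear and 0 mitochondrially encoded members were called, and the lowest adjusted p of a member was 0.0848, for Ndufaf4 and ND4 without lv_nc replicate 1. The count over all genes, 3 in the reported test, was 0 with a pseudocount of 0.1, 5 with a value of at least 10 in all 4 libraries, 24 with robust empirical Bayes, 5 with edgeR, 318 with DESeq2 and 0 without any 1 library. The median log2 fold change of nuclear members, -0.0404, was -0.0319 with TMM scaling, -0.0318 with edgeR, -0.0804 with library totals and -0.0779 with totals of nuclear protein-coding genes, and -0.0636 to -0.0208 without 1 library. That of the mitochondrially encoded genes was 0.0338 to 0.245 without 1 library. The replicate block left 3 genes called, none a member, and gave medians of -0.0404 and 0.139. With that block 1 nuclear and 3 mitochondrially encoded members had an unadjusted p under 0.05 by limma, beside 2074 of the 16391 genes tested. Over 10051 genes the replicate differences of the groups correlated at r = 0.33. That is a hint from the data and not from the labels, which do not say that equal numbers mark a shared culture. For the 87 nuclear members with a mean of at least 50 the correlation was 0.097, and for the 13 mitochondrially encoded members it was 0.27. Adding reads of similar rows to Atp5pb, Ndufa1 and ND4, chosen after seeing the data, changed no call. Of 685 values of 43 named members, 31 lay further than 1 SE from the reported value, 30 of them without 1 library. Values of the sign opposite to the reported value numbered 31, in 18 of the named members. The largest reported value among those was 0.373 in size. The cause of these shifts was not tested. With 2 libraries a group, small fold changes are not resolved.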

Other observations

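The mitochondrial ribosomal RNA rows are not protein-coding and so were not members. For both rows each lv_Mettl3 library was above each lv_nc library, as for 23.5% of all genes tested. DESeq2 called 1 of them, beside 2.52% of all genes given an adjusted p. The row of 958 bases had 2193 and 2318 normalized counts in lv_Mettl3, against 1203 and 1548 in lv_nc, a log2 fold change of 0.72 (SE 0.14, adjusted p = 0.378 by limma and 0.0048 by DESeq2). The row of 1571 bases had 2177 and 2123 in lv_Mettl3, against 1922 and 1700 in lv_nc, a log2 fold change of 0.25 (SE 0.10, adjusted p = 0.486 by limma and 0.659 by DESeq2). Per the series text ribosomal RNA was removed before sequencing, and whether that removal differed between libraries was not tested. The 20 mitochondrial transfer RNA rows summed to 708 and 622 in lv_Mettl3, against 728 and 557 in lv_nc.

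A pair of rows described as the complex I iron-sulfur protein 6, each 639 bases long on chromosome 1, exchanged places between replicates. LOC679739 had 243 and 12.4 normalized counts in lv_Mettl3, against 2.93 and 27.7 in lv_nc. LOC100912599 had 5.30 and 210 in lv_Mettl3, against 26.4 and 2.77 in lv_nc. Summed, the pair had 248 and 222 in lv_Mettl3, against 29.3 and 30.5 in lv_nc. Neither row was called alone, at limma adjusted p of 0.597 and 0.72, and the sum was formed after the values were seen and was not tested.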
